A study of Homo sapiens with 21 samples.

Results

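The 10 genes described here are the commonly used markers and transcription factors of the epithelial-mesenchymal transition: CDH1, CDH2, CDH3, EPCAM, VIM, ZEB1, ZEB2, SNAI1, SNAI2 and TWIST1. They were chosen by name, with earlier results of these data known, and are 10 of the 60668 gene identifiers in each deposited table. Each gene's level is given in 21 RNA-seq libraries of HCC1806, an established cell line of human triple negative breast cancer, grown as adherent cells. All 7 groups hold 3 libraries each. In the first table, 3XCTL is a control, 3XSR is the genotype overexpressing SRSF2, SRSF3 and SRSF7 together, and MYC-OE overexpresses MYC. In the second, 1xCtrl is a control, and 1xSRSF2, 1xSRSF3 and 1xSRSF7 each overexpress 1 of these 3 serine- and arginine-rich splicing factors. MYC-OE was set against 3XCTL, the control of its own table, and whether the 2 carry matching vectors was not given in the sources used here. The labels name no clone, vector or promoter, and nothing says that the 3 libraries of a group came from separate cultures, so p-values measure the spread between these libraries, which may be technical.

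In the epithelial-mesenchymal transition, cells that adhere to one another through E-cadherin loosen these contacts and take on filaments, cadherins and matrix genes of mesenchymal cells. E-cadherin (CDH1), P-cadherin (CDH3) and EPCAM hold epithelial cells together, while N-cadherin (CDH2) and the intermediate filament protein vimentin (VIM) are typical of mesenchymal cells. SNAI1, SNAI2, ZEB1 and ZEB2 are zinc finger proteins that bind E-box sequences and repress CDH1, and TWIST1 is a basic helix-loop-helix factor. ZEB1 and ZEB2 are in turn targets of the miR-200 family and miR-205, microRNAs of epithelial cells. Basal-like breast cancer lines often carry SNAI2 and P-cadherin beside epithelial genes.

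The mature microRNAs that join ZEB1 and ZEB2 to the epithelial state are shown first, with the seed (bases 2 to 8) in capitals. They fall into 3 groups by seed, in the RefSeq table of build GRCh38.p14. miR-200a-3p and miR-141-3p share 1 seed, and miR-200b-3p, miR-200c-3p and miR-429 share another that differs from it.
miR-200a-3p: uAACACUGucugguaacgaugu
miR-141-3p: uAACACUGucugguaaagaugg
miR-200b-3p: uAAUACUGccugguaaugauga
miR-200c-3p: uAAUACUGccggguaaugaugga
miR-429: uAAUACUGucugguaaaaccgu
miR-205-5p: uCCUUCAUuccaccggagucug

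The first match to the miR-200b-3p seed group in the 3′ untranslated region of each ZEB transcript (GENCODE release 29, the transcript with the longest coding sequence) is printed with the 7 matching bases in capitals.
ZEB1: attgttttatcttatCAGTATTatcact
ZEB2: cgcactaccatacatCAGTATTtttatt
The ZEB1 region of 2549 bases held 6 matches of CAGTATT, read on the transcript strand. Of 3466 untranslated regions at least that long, cut to the same length, 27.58% held the match at least once and 0.03% held it as often. The smaller share is the ZEB1 region itself, which was counted among these regions. The ZEB2 region of 5370 bases held 5 matches, against 48.53% of 814 such regions with at least 1 and 0.12% with as many. Here too the smaller share is the ZEB2 region itself. For miR-205-5p, the letters ATGAAGG stood once in the ZEB1 region (18.7% of the regions of that length) and were not found in this window of ZEB2. Small RNAs were not measured, and a match is a description of the letters, not of use by a microRNA.

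The RefSeq promoter table matched 4 of the 10 genes: VIM, ZEB1, ZEB2 and CDH2, and not CDH1, CDH3, EPCAM, SNAI1, SNAI2 or TWIST1. Promoters are shown for VIM and ZEB1, which rose together in 4 of the 5 lines below. Each is the 250 bases before the first RefSeq start site of the gene (GRCh38.p14, plus strand), with CACCTG or its reverse CAGGTG, the E-box letters bound by SNAI and ZEB proteins, in capitals where present.
VIM, chr10:17227991-17228240: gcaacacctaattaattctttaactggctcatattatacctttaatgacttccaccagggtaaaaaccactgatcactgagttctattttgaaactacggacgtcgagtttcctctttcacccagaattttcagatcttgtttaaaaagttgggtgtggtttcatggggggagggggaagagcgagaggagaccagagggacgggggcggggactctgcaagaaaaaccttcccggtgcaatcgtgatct
ZEB1, chr10:31318167-31318416: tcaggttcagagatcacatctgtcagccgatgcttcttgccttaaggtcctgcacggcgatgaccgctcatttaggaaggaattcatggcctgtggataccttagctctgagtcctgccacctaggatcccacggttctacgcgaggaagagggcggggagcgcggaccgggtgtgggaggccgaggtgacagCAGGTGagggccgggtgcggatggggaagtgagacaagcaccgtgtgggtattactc
The ZEB1 window held 1 CAGGTG, which begins 57 bases before the start, and the VIM window held none, where 17.5% of all 35116 promoter windows of 250 bases held the motif on either strand. The letters CACGTG, the E-box bound by MYC with MAX, were in neither window and in 6.35% of all windows. GGGCGG, the GC box, stood once in each and in 42.6% of all windows on either strand. CACCTG and CACGTG are both forms of CANNTG, which 61.8% of all windows held. RefSeq listed 7 start sites for ZEB1 and 1 for VIM, so the printed ZEB1 window is only its first. The window of ZEB1 start site 3, which lies within its own exons, held CACCTG or its reverse 2 times. The windows of its remaining start sites held neither.

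Total counts ran from 143269192 to 303323552 per library. A floor of 3 counts corresponds to 0.00989 to 0.0209 CPM (read counts scaled to the TMM-adjusted library size), and this floor covers counting error only. Within groups, 1xCtrl replicate 2 stood furthest from its fellows (mean correlation of log2 levels 0.972), and its deviation from the group mean followed the GC content of the transcripts (r = 0.725 across genes, which are not independent replicates). 3XCTL replicate 2 stood apart less (0.983, with r = -0.546 for GC). SRSF3, SRSF7 and MYC were higher in the libraries labelled for them, by modest amounts. In the 3XSR group SRSF3 rose by 0.31 ± 0.06 and SRSF7 by 0.44 ± 0.05 (log2, SE). SRSF3 rose by 0.49 ± 0.07 in 1xSRSF3, SRSF7 by 0.26 ± 0.05 in 1xSRSF7 and MYC by 0.90 ± 0.05 in MYC-OE. SRSF2 was not higher: it had a mean of 386 CPM in the 3XSR group against 403 in 3XCTL, and 398 in the 1xSRSF2 group against 444 in 1xCtrl. The transcripts of that gene therefore do not bear out these 2 labels, and "labelled 3XSR" and "labelled 1xSRSF2" are used for that reason. MYC also rose in the libraries labelled 3XSR, by 0.75 ± 0.05 (log2, SE), in 1xSRSF3 by 0.26 ± 0.06 and in 1xSRSF7 by 0.27 ± 0.06. Compared directly, MYC was higher in MYC-OE than in the 3XSR-labelled libraries by 0.15 ± 0.05. SRSF3 and SRSF7 rose in the 1xSRSF2-labelled libraries by 0.30 ± 0.07 and 0.24 ± 0.05, and SRSF2 fell in MYC-OE by 0.48 ± 0.05 and in 1xSRSF7 by 0.38 ± 0.06. The 7 basal breast epithelial markers summed to between 5024 and 7209 CPM in every library, while the 5 endothelial markers summed to at most 1.33 CPM.

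The epithelial genes stood far above the other members in every library. Levels between genes are compared only per length, as CPM per kilobase of the transcript with the longest coding sequence. On that scale EPCAM had a median of 418 over the 21 libraries, CDH3 of 80.2 and CDH1 of 78.4. SNAI2 (median 13.96) was the highest of the 5 transcription factors and stood above CDH2 (3.804), TWIST1 (2.18) and VIM (1.48). SNAI1 (0.469), ZEB2 (0.124) and ZEB1 (0.0487) had the lowest medians. This order does not hold in 3XCTL, where VIM (0.102, 0.130 and 0.104) was below SNAI1 (0.320, 0.218 and 0.211) in every library and overlapped ZEB2 (0.0904, 0.108 and 0.124). Over all libraries CDH1 and CDH3 had no single order, and their ranges (62.5 to 94.8 and 68.7 to 106) overlapped. Within libraries, the ratio of CDH1 to CDH3 was 0.868 to 0.896 in MYC-OE and 0.779 to 0.837 in 1xSRSF3. In 3XCTL it was 1.01 to 1.24. In every other group, some libraries had more CDH1 and some more CDH3. By contrast, the lowest EPCAM library (338) stood above the highest library of any other member. ZEB1 rested on 8 to 157 counts per library and SNAI1 on 64 to 279, against 54738 to 112995 for CDH1, so the error of these low genes is much larger: the coefficient of variation within a group reached 64.1% for ZEB1 and 7.52% for CDH1.

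**Figure D1:**
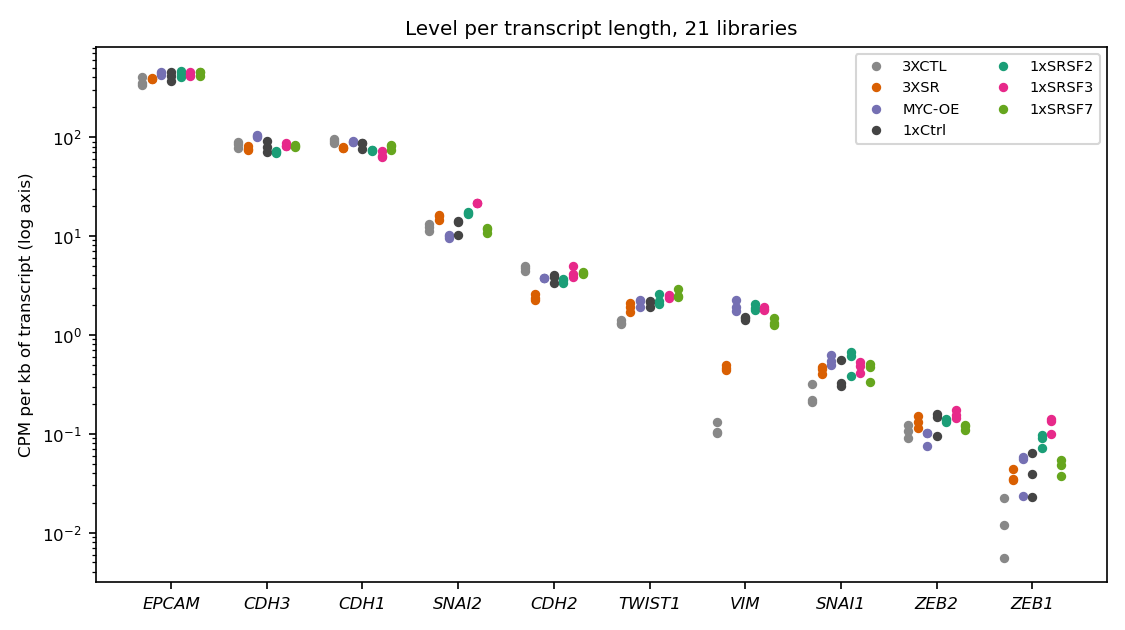
Level of each of the 10 genes per kilobase of transcript (CPM per kb, log axis) in all 21 libraries, with groups in separate colours. EPCAM, CDH3 and CDH1 lie above the other 7 genes in every library, and VIM and ZEB1 spread furthest between groups.

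The libraries labelled 3XSR had more VIM, ZEB1, SNAI1, SNAI2 and TWIST1 than the 3XCTL libraries, and less CDH1 and CDH2. CDH3, EPCAM and ZEB2 did not pass the test. So the mesenchymal filament gene and 4 of the 5 transcription factors moved up, while the mesenchymal cadherin CDH2 moved down further than the epithelial cadherin CDH1. By edgeR's quasi-likelihood test with Benjamini-Hochberg adjustment over all genes, 7 of the 10 members passed an adjusted p of 0.05, beside 29.0% of the 23160 genes tested. By direction, 5 rose beside 15.3% of genes and 2 fell beside 13.7%. In such bulk libraries a change in the share of cells that express a gene and a change in RNA per cell cannot be told apart.

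VIM stood at 0.191, 0.243 and 0.194 CPM in 3XCTL and at 0.867, 0.933 and 0.817 CPM in the libraries labelled 3XSR, so the groups did not overlap. Its log2 fold change was 2.06 ± 0.16 (SE, n = 3 per group), a 4.17-fold rise with an adjusted p of 2.44e-06 (edgeR). CDH2 stood at 19.0, 21.5 and 20.4 CPM in the control and at 9.68, 11.2 and 10.2 CPM in the 3XSR-labelled libraries, each of which was below every control library. CDH2 fell by 0.97 ± 0.07 on the log2 scale (edgeR adjusted p = 1.81e-06), to 0.511 of the control level.

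CDH1, the E-cadherin gene, was at 421, 462 and 446 CPM in the control and at 381, 375 and 382 CPM beside it. The groups did not overlap, and the change of -0.22 ± 0.05 (edgeR adjusted p = 0.00426) left the gene at 0.857 of its control level. SNAI2 was at 29.7, 32.2 and 27.5 CPM against 39.9, 35.2 and 38.6 CPM, all 3 of which exceeded the controls, with a change of 0.35 ± 0.07 (adjusted p = 0.00278).

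SNAI1 had 0.539, 0.367 and 0.356 CPM in 3XCTL and 0.806, 0.766 and 0.671 CPM in the 3XSR-labelled group, a change of 0.83 ± 0.20 (edgeR adjusted p = 0.00963) with no overlap. TWIST1 had 2.36, 2.19 and 2.15 against 3.19, 2.84 and 3.49 CPM, a change of 0.51 ± 0.11 (edgeR adjusted p = 0.00558), again without overlap. ZEB1 had 0.0332, 0.135 and 0.0722 CPM, or 8, 25 and 13 counts, against 0.203, 0.208 and 0.265 CPM, or 37, 41 and 38 counts. All 3 values were above the controls, and the change was 1.504 ± 0.499 (edgeR adjusted p = 0.0404).

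This ZEB1 call did not hold without 3XCTL replicate 1 (edgeR adjusted p = 0.13) or replicate 3 (0.114), nor without replicate 1 (0.076), 2 (0.0736) or 3 (0.114) of the 3XSR-labelled group, and limma-voom gave 0.0563 and edgeR on only the groups compared 0.0517. Without 3XCTL replicate 2, the control library that stood apart, CDH3 passed as lower (-0.18, edgeR adjusted p = 0.0101) and EPCAM as higher (0.17, adjusted p = 0.0107). With all libraries these 2 gave -0.13 (95% interval -0.24 to -0.01) and 0.08 (-0.05 to 0.21), and neither passed. ZEB2 gave 0.30, with an interval from -0.06 to 0.66.

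**Figure D2:**
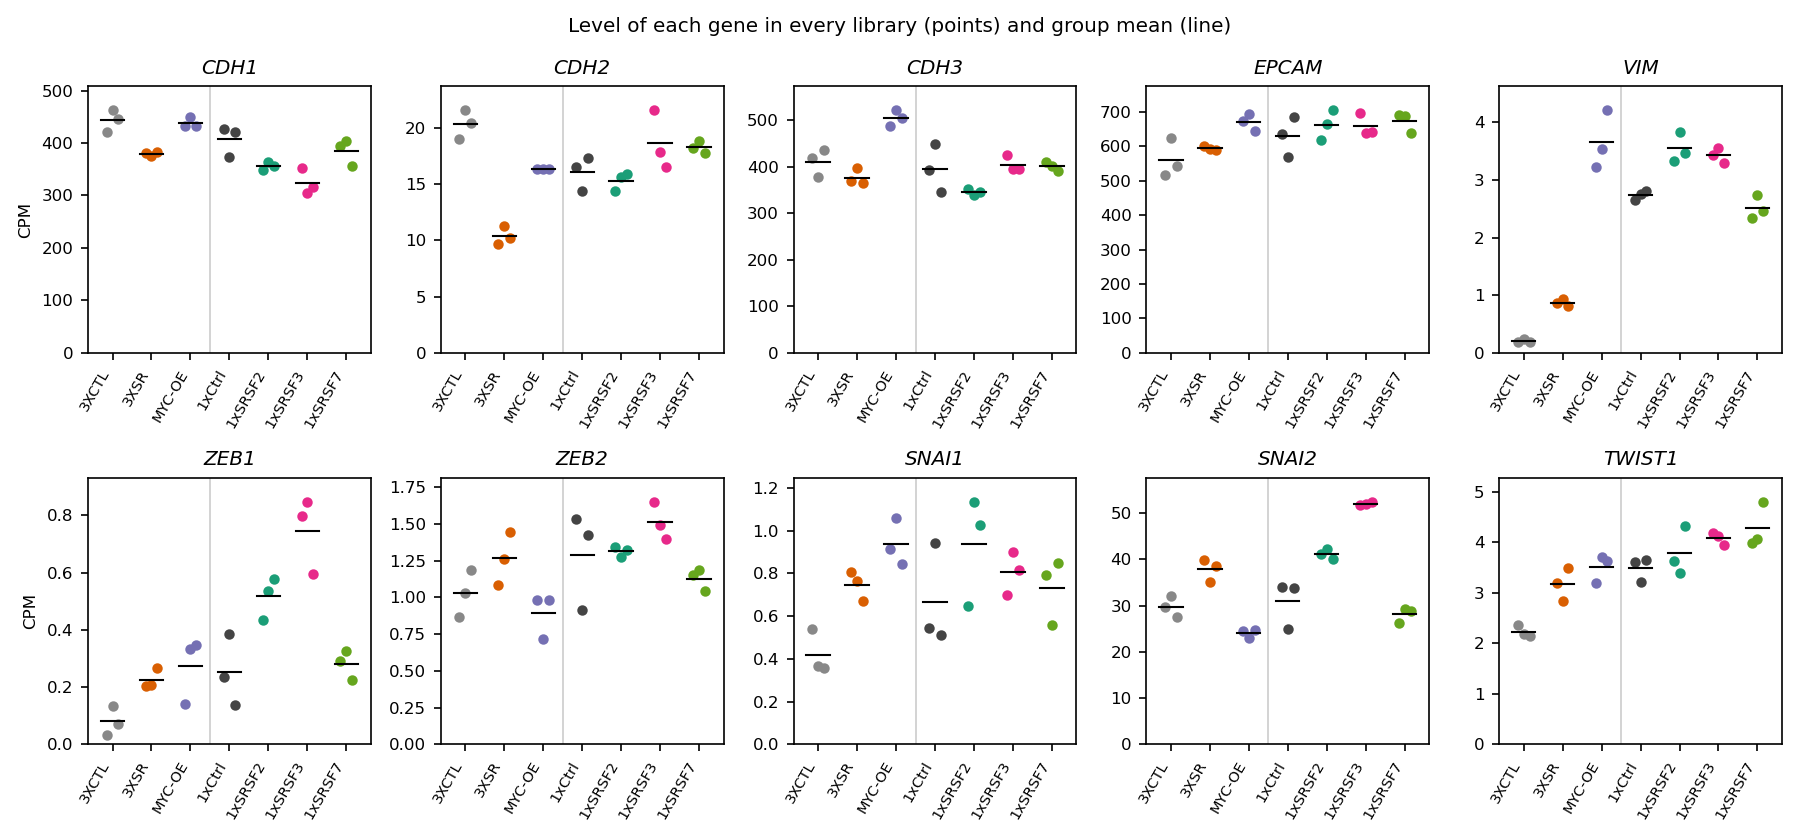
CPM of each gene in every library (points) with the group mean (line), on a linear axis from 0 for each gene; the grey line separates the 2 tables, which were scaled separately. VIM is near 0.2 CPM in 3XCTL and between 2.3 and 4.2 CPM in MYC-OE and in all 4 groups of the second table.

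In MYC-OE, VIM rose furthest of the 10 genes, and ZEB1, SNAI1 and TWIST1 rose with it. In the same libraries the epithelial genes CDH3 and EPCAM also rose, SNAI2 and CDH2 fell, and CDH1 did not pass the test. Markers of both states were therefore higher than in 3XCTL. In all, 8 members passed the test, beside 35.3% of all genes in this comparison. By direction, 6 rose beside 18.0% of genes and 2 fell beside 17.3%.

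VIM stood at 3.23, 3.54 and 4.21 CPM in MYC-OE, all more than 10 times the control libraries. Its change of 4.13 ± 0.17 (log2, SE, n = 3; edgeR adjusted p = 6.64e-09), 17.5-fold, was larger in size than that of 99.3% of the genes tested. SNAI1 stood at 0.913, 1.06 and 0.845 CPM, above its controls, with a change of 1.15 ± 0.20 (adjusted p = 0.000874). TWIST1 stood at 3.19, 3.71 and 3.63 CPM, a change of 0.65 ± 0.11 (edgeR adjusted p = 0.000804).

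ZEB1 had 0.142, 0.333 and 0.348 CPM in MYC-OE, of which the first was close to the highest control library (0.135). The change was 1.79 ± 0.49 (edgeR adjusted p = 0.0142), and it did not pass without MYC-OE replicate 2 (adjusted p = 0.0526) or replicate 3 (0.0557). SNAI2 fell to 24.5, 22.9 and 24.8 CPM, below every control library, by 0.31 ± 0.07 on the log2 scale (edgeR adjusted p = 0.00469). CDH2 was at 16.4 CPM in all 3 MYC-OE libraries and fell by 0.31 ± 0.07 (edgeR adjusted p = 0.00522).

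Among the epithelial members, P-cadherin (CDH3) stood at 488, 522 and 504 CPM in MYC-OE, above its controls at 419, 378 and 435 CPM, with a change of 0.30 ± 0.06 (edgeR adjusted p = 0.00234). EPCAM stood at 673, 694 and 646 CPM against 517, 624 and 542 CPM, a change of 0.26 ± 0.07 (edgeR adjusted p = 0.00896). For both genes the groups did not overlap. CDH1 differed by -0.02 with a 95% interval from -0.11 to 0.08, and ZEB2 by -0.20 with an interval from -0.56 to 0.16.

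In 1xSRSF3, 4 of the 10 genes passed the test: SNAI2, ZEB1 and VIM were higher and CDH1 was lower. The libraries labelled 1xSRSF2 had higher SNAI2, ZEB1 and VIM, and no member passed as lower. In 1xSRSF7 none of the 10 passed. Counts of 4, 3 and 0 of 10 stand beside 29.2%, 23.5% and 17.3% of all 24362 genes tested by edgeR in the same comparisons. The counts in 1xSRSF3 and in the 1xSRSF2-labelled group were therefore near the background share. By direction, 3 rose in the 1xSRSF2-labelled group beside 11.6% of genes and 0 fell beside 11.9%, 3 rose in 1xSRSF3 beside 15.0% and 1 fell beside 14.1%, and in 1xSRSF7 the shares of all genes were 9.03% higher and 8.26% lower. At an unadjusted p under 0.05, 1xSRSF7 had 1 member, TWIST1 (0.30 ± 0.12, adjusted p = 0.104), and DESeq2 and limma-voom called none of the 10.

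SNAI2 stood at 34.1, 24.9 and 33.9 CPM in 1xCtrl, at 41.2, 42.2 and 40.0 CPM in the libraries labelled 1xSRSF2, at 51.8, 52.0 and 52.5 CPM in 1xSRSF3 and at 26.3, 29.4 and 28.8 CPM in 1xSRSF7. The SRSF2-labelled and SRSF3 libraries were all above the controls, and the 1xSRSF7 libraries lay within the controls' range. The changes were 0.41 ± 0.10 (edgeR adjusted p = 0.00885), 0.75 ± 0.10 (0.000104) and -0.14 ± 0.10 (0.378). The low value of 24.9 belongs to 1xCtrl replicate 2, the library that stood apart; without it SNAI2 passed as lower in 1xSRSF7 (-0.26, edgeR adjusted p = 0.00264).

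ZEB1 stood at 0.237, 0.386 and 0.137 CPM in 1xCtrl, on 26 to 89 counts, and at 0.798, 0.848 and 0.595 CPM in 1xSRSF3, on 134 to 157 counts. Every 1xSRSF3 library was above every control, and the change was 1.55 ± 0.32 (edgeR adjusted p = 0.00244). In the 1xSRSF2-labelled libraries ZEB1 stood at 0.433, 0.537 and 0.579 CPM, a change of 1.02 ± 0.32 (edgeR adjusted p = 0.0334), and in 1xSRSF7 at 0.292, 0.326 and 0.224 CPM, within the control range. The call in the 1xSRSF2-labelled group was lost without 1xCtrl replicate 1 (adjusted p = 0.144) or 3 (0.115) and without its own replicate 1 (0.0723), 2 (0.124) or 3 (0.142), with no filter (0.0617) and with only the groups compared (0.143).

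VIM stood at 2.65, 2.76 and 2.81 CPM in 1xCtrl, at 3.34, 3.84 and 3.47 CPM in the 1xSRSF2-labelled libraries and at 3.43, 3.55 and 3.30 CPM in 1xSRSF3. Both sets lay above the controls, by 0.37 ± 0.10 (edgeR adjusted p = 0.0193) and 0.32 ± 0.10 (0.0319). These 2 calls were close to the threshold. The first was lost without 1xCtrl replicate 1 (edgeR adjusted p = 0.0931) or 3 (0.0502) and without 1xSRSF2 replicate 2 (0.1) or 3 (0.0508), with no filter (0.0514) and with only the groups compared (0.0826). The second was lost without 1xCtrl replicate 1 (0.152) or 3 (0.0812) and without 1xSRSF3 replicate 1 (0.111), 2 (0.11) or 3 (0.0841), and also with upper-quartile scaling (0.101), total counts alone (0.132), no filter (0.109) and only the groups compared (0.0995).

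CDH1 stood at 427, 373 and 421 CPM in 1xCtrl and at 352, 305 and 317 CPM in 1xSRSF3, where it fell by 0.33 ± 0.07 (edgeR adjusted p = 0.00458) with no overlap. The 1xSRSF2-labelled libraries (349, 364 and 357 CPM) also lay below the controls, but the change of -0.19 (95% interval -0.33 to -0.05) had an adjusted p of 0.0811. It passed without 1xCtrl replicate 2 (-0.26, edgeR adjusted p = 0.00889), without 1xSRSF2 replicate 2 (0.0411) or 3 (0.046), and after removal of the GC trend (0.0062). The change also passed with total counts alone, no filter, at least 10 counts in every library and only the groups compared. CDH2, EPCAM, ZEB2, SNAI1 and TWIST1 passed in none of the 3 single lines with all libraries, and SNAI1 passed as higher in the 1xSRSF2-labelled group without 1xCtrl replicate 2 (0.82, adjusted p = 0.0276). CDH3 changed by -0.20 there (95% interval -0.35 to -0.04) without passing. It passed as lower without 1xCtrl replicate 3 (-0.33, edgeR adjusted p = 0.00834), with total counts alone and with the GC trend removed.

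**Figure D3:**
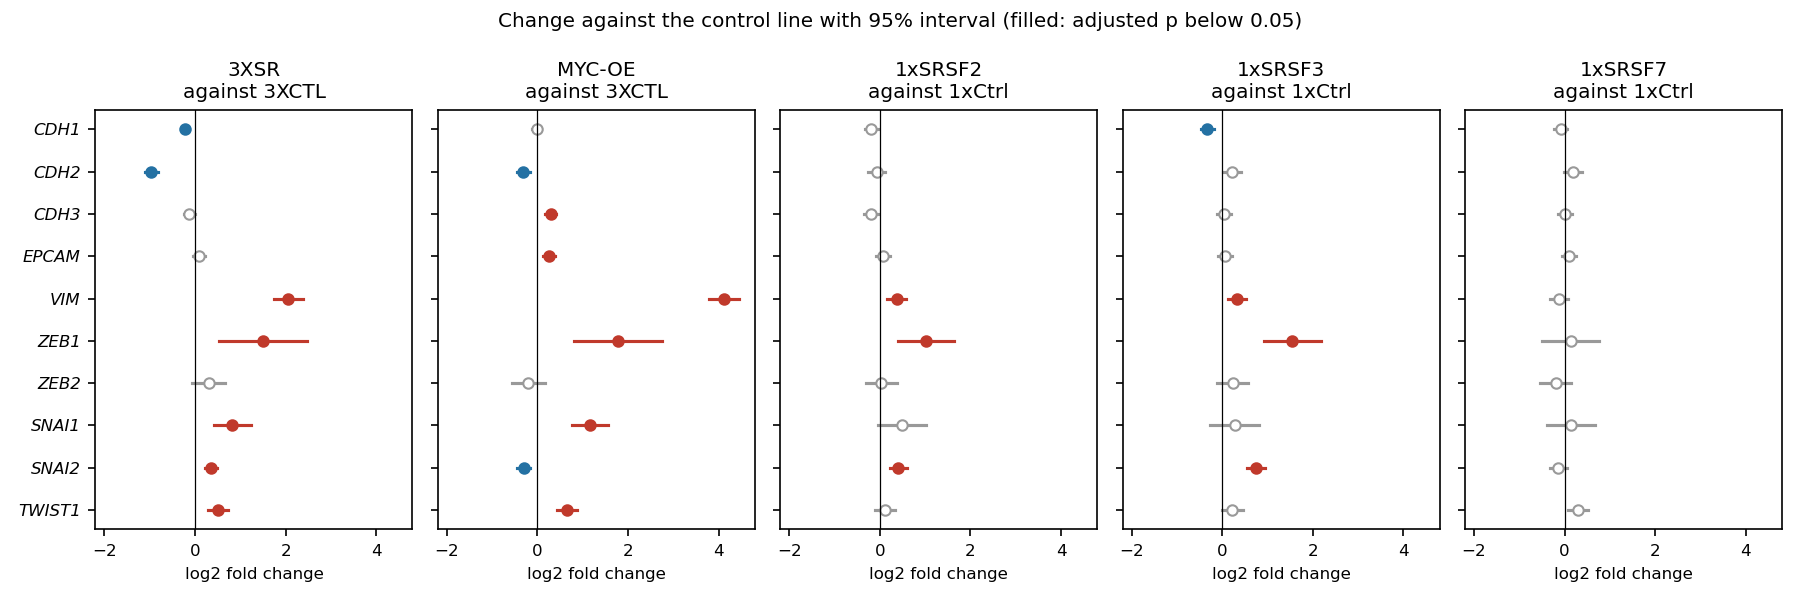
Log2 fold change of each gene against the control of its own table with its 95% interval, from edgeR; filled red and blue points passed as higher and lower at an adjusted p of 0.05, open grey points did not. VIM has the largest change in 3XSR and MYC-OE (2.06 and 4.13), SNAI2 lies above 0 in 3XSR, 1xSRSF2 and 1xSRSF3 and below 0 in MYC-OE, and no point is filled for 1xSRSF7.

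Lines that share a control were compared directly. Between MYC-OE and the libraries labelled 3XSR, 5 members differed, beside 34.9% of all genes. CDH1 (0.21 ± 0.05), CDH2 (0.66 ± 0.07), CDH3 (0.42 ± 0.06) and VIM (2.07 ± 0.15) were higher in MYC-OE, and SNAI2 was lower (-0.65 ± 0.07), with edgeR adjusted p-values from 2.35e-06 (VIM) to 0.00559 (CDH1). Of all genes, 17.3% were higher and 17.6% lower. ZEB1, SNAI1 and TWIST1, which had risen in both, differed between them by 0.28 (95% interval -0.63 to 1.19), 0.33 (-0.06 to 0.72) and 0.15 (-0.08 to 0.37). EPCAM (0.18, adjusted p = 0.0572) and ZEB2 (-0.50, adjusted p = 0.0564) were close to the threshold.

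Among the single lines, SNAI2 passed in all 3 pairs, though the first of these calls was lost with upper-quartile scaling (edgeR adjusted p = 0.0707). It was higher in 1xSRSF3 than in the 1xSRSF2-labelled libraries by 0.34 ± 0.10 (edgeR adjusted p = 0.021) and lower in 1xSRSF7 than in either, by 0.55 ± 0.10 (0.0014) and 0.89 ± 0.10 (1.8e-05). VIM was also lower in 1xSRSF7 than in the 1xSRSF2-labelled libraries (-0.50 ± 0.10, edgeR adjusted p = 0.00379) and 1xSRSF3 (-0.45 ± 0.10, 0.00447), and ZEB1 was lower than in 1xSRSF3 (-1.41 ± 0.31, 0.00328). CDH1 was higher in 1xSRSF7 than in 1xSRSF3 by 0.25 ± 0.07 (adjusted p = 0.0189).

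CDH2 and CDH3 passed as higher in 1xSRSF3 than in the 1xSRSF2-labelled libraries with adjusted p-values of 0.0499 and 0.048, which most other settings did not keep. The 3 pairs in the order 1xSRSF3 against 1xSRSF2, 1xSRSF7 against 1xSRSF2 and 1xSRSF7 against 1xSRSF3 had 3, 2 and 4 members past the test, beside 26.8%, 24.2% and 35.2% of all genes. In the first pair all 3 were higher (14.1% of genes higher, 12.6% lower), in the second both were lower (12.8% and 11.5%), and in the third 1 was higher and 3 lower (17.3% and 17.8%).

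Whether the joint line moved a gene more than a single line did was tested in a joint fit of all 21 libraries, as the difference of the 2 changes, each against its own control. VIM rose more in the 3XSR-labelled line than in each single line, by 1.70 ± 0.17 against the 1xSRSF2-labelled line, 1.75 ± 0.17 against 1xSRSF3 and 2.19 ± 0.17 against 1xSRSF7 (edgeR adjusted p = 6.36e-07, 6.85e-07 and 1.93e-08). CDH2 fell more, by 0.89 ± 0.13, 1.17 ± 0.13 and 1.15 ± 0.13 (edgeR adjusted p = 3.12e-05, 2.16e-06 and 1.52e-06). SNAI2 rose less than in 1xSRSF3 (-0.39 ± 0.12, adjusted p = 0.033) and more than in 1xSRSF7 (0.49 ± 0.12, adjusted p = 0.00626). These 3 contrasts held 2, 3 and 3 members past the test, beside 21.9%, 17.8% and 24.6% of the 25013 genes. They were 1 higher and 1 lower (13.3% and 8.53% of genes), 1 and 2 (10.8% and 7.02%), and 2 and 1 (13.6% and 10.9%). For ZEB1 the differences were 0.50, -0.02 and 1.38, none past the test. Their intervals ran from -0.65 to 1.66, -1.53 to 1.48 and 0.22 to 2.55. The second interval is unreliable, because an SE taken as the change over the root of F is unstable for a change near 0.

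These differences have to be read beside the controls, whose levels differed most for VIM. VIM averaged 0.209 ± 0.0291 CPM (SD, n = 3) in 3XCTL and 2.74 ± 0.0844 CPM in 1xCtrl, which is 13.1 times as much, and the libraries did not overlap. ZEB1 was 3.16 times and TWIST1 1.57 times as high in 1xCtrl, while CDH2 stood at 0.791 of its 3XCTL level, all without overlap. CDH1, CDH3, EPCAM, ZEB2, SNAI1 and SNAI2 overlapped between the controls. The tables were scaled separately, and the control levels were not tested against each other; the joint fit tests differences of changes only. The table and the control line changed together, so their parts cannot be told apart.

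In order of group means, VIM stood at 3.66 CPM in MYC-OE, 3.55 in the 1xSRSF2-labelled libraries, 3.43 in 1xSRSF3, 2.74 in 1xCtrl, 2.52 in 1xSRSF7, 0.872 in the 3XSR-labelled libraries and 0.209 in 3XCTL. The first 3 overlapped one another, as did 1xCtrl and 1xSRSF7. After its 4.17-fold rise, the 3XSR-labelled line thus remained below every library of the second table. SNAI2 ran from 52.1 CPM in 1xSRSF3 through 41.1 in the 1xSRSF2-labelled and 37.9 in the 3XSR-labelled libraries, 31.0 in 1xCtrl, 29.8 in 3XCTL and 28.1 in 1xSRSF7 to 24.1 in MYC-OE. Between 1xCtrl, 3XCTL and 1xSRSF7 its libraries overlapped.

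CDH2 was lowest in the libraries labelled 3XSR (10.4 CPM), and every other group had a mean between 15.3 and 20.3 CPM. CDH1 was lowest in 1xSRSF3 (324 CPM) and highest in 3XCTL (443 CPM), a 1.37-fold span, and EPCAM spanned 1.20-fold between groups against 17.5-fold for VIM. Per kilobase of transcript, the ratio of E-cadherin to N-cadherin was 19.4 ± 0.299 (SD, n = 3) in 3XCTL, 32.6 ± 2.73 in the 3XSR-labelled libraries and 23.8 ± 0.479 in MYC-OE. It was 22.5 ± 0.831 in 1xCtrl, 20.7 ± 0.822 in the 1xSRSF2-labelled libraries, 18.7 ± 0.741 in 1xSRSF7 and 15.6 ± 1.33 in 1xSRSF3. The ratio of CDH1 to VIM went the other way, from 818 ± 78.3 in 3XCTL to 167 ± 12.7 and 46.4 ± 6.26 in the other 2 groups of that table.

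Lists of related genes were counted beside the members, and each count is to be read against the share of all genes called. That share was 15.3% higher and 13.7% lower in the 3XSR-labelled line, 18.0% and 17.3% in MYC-OE, 11.6% and 11.9% in the 1xSRSF2-labelled line, 15.0% and 14.1% in 1xSRSF3, and 9.03% and 8.26% in 1xSRSF7. Of 24 further mesenchymal genes, 9 rose and 5 fell in the 3XSR-labelled libraries, 13 rose and 4 fell in MYC-OE, and 8 and 5, 7 and 5, and 6 and 3 did so in the single lines in the order SRSF2, SRSF3 and SRSF7. Their median log2 fold change was 0.05 in the 3XSR-labelled line, 0.58 in MYC-OE, and 0.02, -0.11 and 0.0011 in the single lines, beside medians between -0.025 and -0.0038 over all genes tested in these 5 comparisons. These counts and medians include genes at low levels. Among those that rose in MYC-OE, COL1A2, POSTN and ACTA2 had medians of 0.118, 0.418 and 1.07 CPM over the 21 libraries. PDGFRB, which fell there, had 0.566 CPM. Of 24 further epithelial genes, 2 rose and 11 fell in the 3XSR-labelled line (median -0.24), while 10 rose and 7 fell in MYC-OE (median 0.20). In the single lines 3, 2 and 4 rose and 4, 5 and 3 fell (medians -0.15, -0.07 and 0.17).

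Among the mesenchymal genes, AXL, a receptor tyrosine kinase, rose by 1.70 ± 0.09 in the 3XSR-labelled line (edgeR adjusted p = 1.3e-07) and 3.24 ± 0.10 in MYC-OE (6.8e-10). It also rose in the single lines, by 0.66 ± 0.08, 0.62 ± 0.08 and 0.67 ± 0.08. LOX, the collagen cross-linking enzyme, rose in all 5 lines, by 1.51 ± 0.07 in the 3XSR-labelled line, 1.29 ± 0.07 in MYC-OE, and 0.73 ± 0.09, 1.35 ± 0.09 and 0.32 ± 0.09 in the single lines. AXL and LOX averaged 5.14 and 7.32 CPM in 3XCTL against 15.4 and 17.3 CPM in 1xCtrl, so both were higher in the second control. LUM went the other way, with 37.6 CPM in 3XCTL and 20.1 CPM in 1xCtrl. LUM, the matrix proteoglycan lumican, fell in all 5 lines, from -0.74 ± 0.12 in 1xSRSF7 to -2.07 ± 0.07 in MYC-OE. With a mean of 37.6 CPM it was the larger share of the fibroblast marker sum in 3XCTL, where that sum was 53.7 to 56.4 CPM against 26.9 to 42.4 CPM in the other groups; whether it bears on the members was not tested.

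MUC1, an epithelial surface mucin, also fell in all 5, by 0.40 ± 0.11 (1xSRSF7) to 1.64 ± 0.11 (1xSRSF3). OCLN, the tight junction gene occludin, rose by 0.76 ± 0.09 in the 3XSR-labelled line, 0.70 ± 0.09 in MYC-OE and 0.51 ± 0.08 in 1xSRSF3. ELF3, an epithelial transcription factor, fell by 0.42 ± 0.08 in the 3XSR-labelled line, 0.38 ± 0.08 in the 1xSRSF2-labelled one and 1.45 ± 0.08 in 1xSRSF3. It rose by 0.25 ± 0.08 in MYC-OE and 0.77 ± 0.08 in 1xSRSF7. The leukocyte marker sum was 7.60 to 13.1 CPM in 3XCTL and 34.7 to 38.5 CPM in MYC-OE, almost all of it CD68, a lysosomal protein gene; its part in the changes was not tested.

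Cadherins beside the 3 members moved in both directions. CDH11, a cadherin of mesenchymal cells, stood at 7.98, 8.37 and 9.12 CPM in 3XCTL and at 33.3, 31.6 and 32.0 CPM in the libraries labelled 3XSR, a rise of 1.93 ± 0.07 (edgeR adjusted p = 4.6e-09) in the libraries where CDH2 fell. It rose by 1.08 ± 0.10 in 1xSRSF3 and fell by 1.21 ± 0.10 in 1xSRSF7, 0.51 ± 0.10 in the 1xSRSF2-labelled libraries and 0.47 ± 0.07 in MYC-OE. CDH4 rose in all 5 lines, by 2.79 ± 0.25 in the 3XSR-labelled line, by 4.84 ± 0.26 in MYC-OE (from 0.214 to 6.17 CPM), and by 0.74 ± 0.19, 0.60 ± 0.19 and 1.07 ± 0.19 in the single lines. CDH11 and CDH4 were both lower in 3XCTL (means 8.49 and 0.214 CPM) than in 1xCtrl (25.6 and 1.90 CPM). After its rise, CDH4 averaged 1.49 CPM in the 3XSR-labelled libraries. The control levels were not tested against each other. Of 11 adherens junction partners, 4 rose and 0 fell in MYC-OE, 1 rose and 2 fell in the 3XSR-labelled line, and 3, 2 and 1 fell in the single lines with 0 rising. The calls in both directions together were near or under the share of all genes called in each of the 5 comparisons.

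Of 15 other transcription factors of the transition, 13 were tested. TWIST2 rose in all 5 lines, from 0.44 ± 0.10 in the 1xSRSF2-labelled libraries to 1.07 ± 0.15 in those labelled 3XSR. The counts of higher and lower calls were 2 and 1 in the 3XSR-labelled line, 5 and 5 in MYC-OE, 4 and 3, 5 and 2, and 4 and 1 in the single lines. In the 3XSR-labelled line, 3 of 13 is under the 29.0% of all genes called. KLF8 fell in MYC-OE by 0.23 ± 0.06 and in each single line, by 0.30 ± 0.08 to 0.56 ± 0.08. Of 14 cofactors and turnover factors of the SNAI and ZEB proteins, 2 rose and 4 fell in the 3XSR-labelled line, 3 and 3 in MYC-OE, and 4 and 0, 3 and 1, and 2 and 0 in the single lines. GSK3B, the kinase that marks SNAI1 for degradation, rose by 0.30 ± 0.06 in the 3XSR-labelled line, 0.21 ± 0.07 in the 1xSRSF2-labelled one and 0.58 ± 0.07 in 1xSRSF3.

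Among 10 partners and proteases of EPCAM, 1 rose and 5 fell in the 3XSR-labelled line, beside 15.3% and 13.7% of all genes. SPINT1, a serine protease inhibitor, fell there by 0.42 ± 0.07 and in MYC-OE by 0.23 ± 0.07. ADAM10, a sheddase, fell by 0.24 ± 0.06 in the 3XSR-labelled line, 0.26 ± 0.09 in the 1xSRSF2-labelled one and 0.34 ± 0.09 in 1xSRSF3. In MYC-OE, 2 rose and 2 fell, and in the single lines 0 and 3, 2 and 2, and 1 and 1 did.

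**Figure D4:**
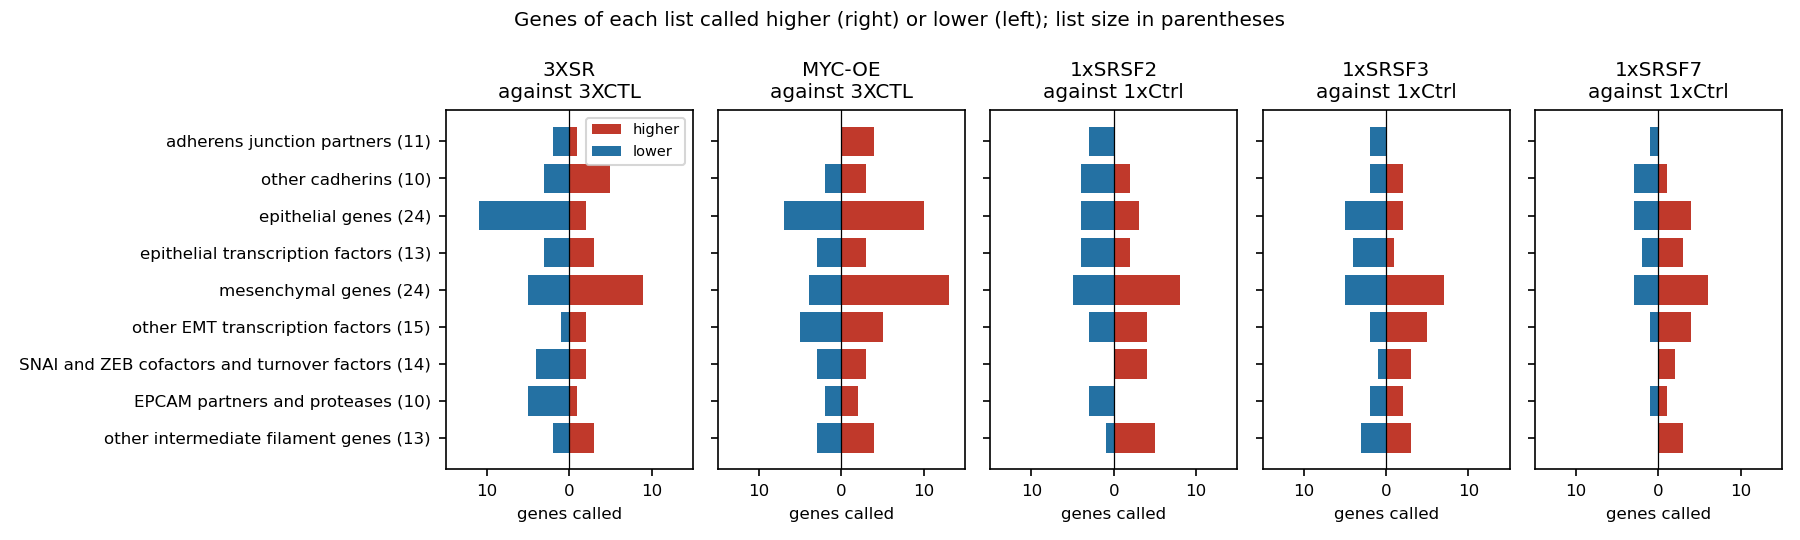
Number of genes of each list that passed as higher (red, right) or lower (blue, left) at an adjusted p of 0.05 in the 5 comparisons with a control; list sizes are in parentheses. Mesenchymal genes have 13 higher and 4 lower in MYC-OE, and epithelial genes 2 higher and 11 lower in 3XSR.

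VIM was not the only intermediate filament gene that moved. NEFH, the heavy neurofilament gene, stood at 2.78, 2.80 and 2.62 CPM in 3XCTL, at 11.9, 10.4 and 11.7 CPM in the 3XSR-labelled libraries and at 21.8, 20.9 and 22.3 CPM in MYC-OE, with changes of 2.05 ± 0.08 and 2.99 ± 0.08 (edgeR adjusted p = 7.3e-09 and 2.8e-10). Its 1xCtrl libraries stood at 9.63, 9.01 and 8.94 CPM, so this gene too was higher in the second control. It rose further in the single lines, by 0.91 ± 0.08, 0.28 ± 0.08 and 0.85 ± 0.08. NEFL, the light neurofilament gene, rose by 4.17 ± 0.25 in the 3XSR-labelled libraries, 4.47 ± 0.25 in MYC-OE, 1.98 ± 0.22 in the 1xSRSF2-labelled libraries and 0.80 ± 0.22 in 1xSRSF3. NEFL averaged 0.0958 CPM in 3XCTL and 0.731 CPM in 1xCtrl. NES, the nestin gene, fell by 1.01 ± 0.12 in the 1xSRSF2-labelled libraries, 1.03 ± 0.12 in 1xSRSF3 and 0.63 ± 0.12 in MYC-OE. Of 13 such genes, 12 were tested in the first table and 11 in the second. In the 3XSR-labelled line 3 rose and 2 fell, in MYC-OE 4 and 3, and in the single lines 5 and 1, 3 and 3, and 3 and 0.

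Likeness to the members was described by Pearson's r of log2 CPM over the 21 libraries, each library taken relative to the mean of its control, among 11264 or 11265 genes with a mean of at least 5 CPM. The libraries share groups and tables, so these r values are descriptions. VIM was most like AXL (r = 0.971) and PDIA5 (0.964), SNAI2 most like PPP4R3A (0.977) and UBASH3B (0.974), CDH1 most like BTD (0.951) and SORL1 (0.948), and CDH2 most like GCNT1 (0.908). CDH3 was most like MAN1B1 (0.942), EPCAM most like ERO1A (0.919), TWIST1 most like BNIP3 (0.927) and ZEB2 most like ANKRD49 (0.830).

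**Figure D5:**
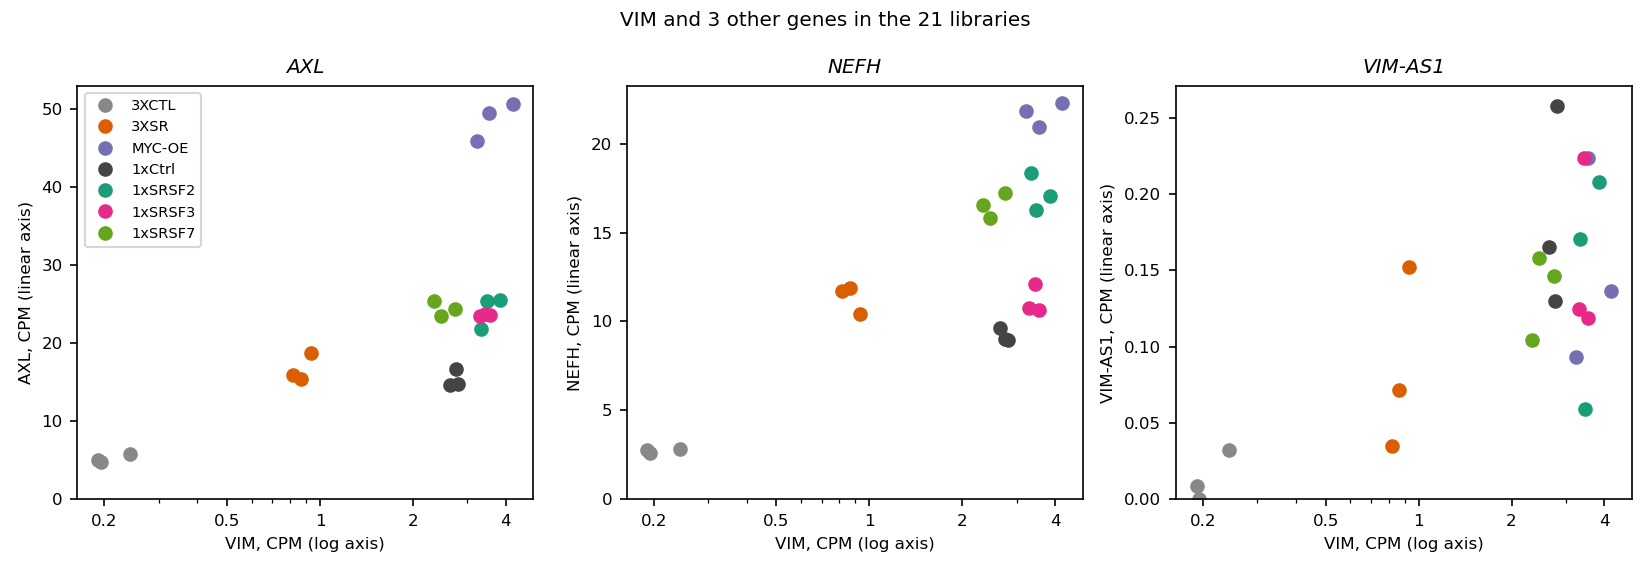
CPM of AXL, NEFH and VIM-AS1 (linear axes from 0) against that of VIM (log axis) in the 21 libraries, coloured by group. The 3XCTL libraries are lowest for all 3 genes, and MYC-OE is highest for AXL and NEFH.

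Antisense genes overlap several members, and whether the counting used strand was not given in the sources used here, so reads of partners cannot be told apart. VIM-AS1 shares 641 exon bases with VIM, on chromosome 10 from 17228259 to 17237593 (GRCh38, GENCODE release 29). It had 0 to 6 counts per library in 3XCTL, 5 to 30 in the 3XSR-labelled libraries and 23 to 45 in MYC-OE, and rose by 2.66 ± 0.88 (edgeR adjusted p = 0.041) and 3.44 ± 0.87 (0.00875). In the single lines, on 10 to 51 counts against 30 to 49 in 1xCtrl, it gave -0.32 ± 0.45, -0.24 ± 0.45 and -0.43 ± 0.45, none past the test, while VIM was higher in the 1xSRSF2-labelled and 1xSRSF3 lines. ZEB1-AS1, with 366 shared exon bases, stood at 1.64 ± 0.181 CPM (SD, n = 3) in 3XCTL and rose by 0.54 ± 0.12 in MYC-OE (adjusted p = 0.00472). It passed in no other line, with 0.28 ± 0.12 in the 3XSR-labelled one (adjusted p = 0.106) and -0.01 ± 0.16 in 1xSRSF3, where ZEB1 rose. ZEB2 shares 1299 exon bases with ZEB2-AS1, CDH3 694, CDH1 347, TWIST1 141 and CDH2 136 with other antisense genes. EPCAM, SNAI1 and SNAI2 share none.

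Host transcripts of miR-205-5p, miR-200c-3p and miR-141-3p were measured although the microRNAs were not. No host transcript of miR-200a-3p, miR-200b-3p or miR-429 was examined. MIR205HG, the host of miR-205-5p, stood at 543, 529 and 552 CPM in 1xCtrl and was lower in every library of the 3 single lines, which ran from 311 to 425 CPM. It fell by 0.53 ± 0.09 in the 1xSRSF2-labelled line, 0.57 ± 0.09 in 1xSRSF3 and 0.48 ± 0.09 in 1xSRSF7 (edgeR adjusted p = 0.00119, 0.000458 and 0.00366). These 3 falls share the same 1xCtrl libraries, so they are not independent of one another. In the first table MIR205HG gave -0.15 ± 0.06 in the 3XSR-labelled line (0.0847) and -0.08 ± 0.06 in MYC-OE (0.33). Its means there were 403 CPM in 3XCTL, 363 in the 3XSR-labelled libraries and 380 in MYC-OE. Every library of that separately scaled table was below every 1xCtrl library, and this difference was not tested. MIR200CHG, the host of miR-200c-3p and miR-141-3p, was named after its values were seen and stood between 2.21 and 4.04 CPM in all libraries and passed against neither control. It was higher in MYC-OE than in the 3XSR-labelled line by 0.38 ± 0.12 (adjusted p = 0.0297).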

How the data were processed

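The authors deposited 2 tables of raw gene counts, and the values are whole numbers that differ in total between libraries. Per the labels, libraries were made with a stranded polyA kit and sequenced as paired reads; the submitters' processing notes name Trimmomatic, STAR, StringTie and GRCh38.p13. The annotation and the strand setting of the counting are not given in the sources used here. Genes were tested within each table with edgeR 4.0.16 (TMM scaling, robust quasi-likelihood fit, filterByExpr with a minimum count of 10 and a minimum total of 15) in R 4.3.3, and differences of changes in a joint fit of both tables. P-values were adjusted by Benjamini-Hochberg over all genes tested, with a threshold of 0.05. All 10 members passed the filter. SE is the log2 fold change over the root of F, and 95% intervals are 1.96 SE. That multiplier belongs to a normal curve, so the intervals are approximate and somewhat narrower than the F test implies. They also carry no adjustment over genes, so an interval can exclude 0 for a gene that did not pass. DESeq2 1.42.0 and limma 3.58.1 (voom) were alternatives, and the fits were tested on simulated counts. Genes named from each list were up to 2 with the highest and 2 with the lowest called change per comparison with a control, at a mean of at least 1 CPM and with no overlap of the groups. The members and lists were chosen with earlier results of these data known. Replicate numbers did not pair the libraries.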

Additional observations from a re-analysis of the deposited data

Results flagged for a closer look

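For 3 genes the change in the line labelled 3XSR differed from that in a single line by a test of the difference itself, in the joint edgeR fit with 3 libraries per group. For VIM the differences were 1.70 against the 1xSRSF2-labelled line, 1.75 against 1xSRSF3 and 2.19 against 1xSRSF7 (log2). For CDH2 they were -0.89, -1.17 and -1.15 in the same order. For SNAI2 they were -0.39 against 1xSRSF3 and 0.49 against 1xSRSF7. The 1xSRSF3 difference of SNAI2 did not pass without 3XCTL replicate 1 (adjusted p = 0.0562) or 2 (0.0835), without 3XSR replicate 2 (0.0826), or without 1xSRSF3 replicate 1 (0.0545) or 3 (0.0589), nor with upper-quartile scaling (0.0969), total counts alone (0.0793), the replicate block (0.061) or only the groups compared (0.112), all by edgeR. Groups of 3 are too small for the test of a single library standing apart.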

How the results depend on the processing

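Of the 50 tests of the members against a control, 22 passed, and 17 of these passed under every alternative and every left-out library. No called value changed sign. The number of members called moved furthest, in proportion to the reported number, for 5 comparisons. For the 1xSRSF2-labelled line (3 with all settings as reported) it was 5 with total counts alone and 5 with the GC trend removed, and 1 to 5 with a library left out (1 without 1xCtrl replicate 1, 5 without 1xCtrl replicate 2). For 1xSRSF7 (0) it was 0 to 1. For 1xSRSF3 against 1xSRSF2 (3) it was 0 with upper-quartile scaling, 1 with no filter, 1 with at least 10 counts in every library, 1 with the replicate block, and 1 to 2 with a library left out. For 1xSRSF7 against 1xSRSF2 (2) it was 4 with total counts alone, 6 with the GC trend removed and 5 with only the groups compared. For the 3XSR change minus that of 1xSRSF7 (3) it was 5 with the GC trend removed and 3 to 5 with a library left out. Other comparisons moved less. With a library left out, the 3XSR-labelled line (7) had 6 to 9, MYC-OE (8) had 7 to 8 and 1xSRSF3 (4) had 3 to 4. The 3XSR change minus that of 1xSRSF2 (2) had 2 to 3, and minus that of 1xSRSF3 (3) had 2 to 4. The cause was not tested.

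With the replicate block, CDH2 (edgeR adjusted p = 0.084) and CDH3 (0.0597) were lost in 1xSRSF3 against 1xSRSF2, and SNAI2 in the 3XSR change minus that of 1xSRSF3 (0.061). ZEB1 was gained in 1xSRSF7 against 1xSRSF2 (0.0408) and in the 3XSR change minus that of 1xSRSF7 (0.0489), and the block changed no other call. Another scaling moved the split of higher against lower calls over all genes by over 10 percentage points in 6 comparisons. With total counts alone higher and lower calls were 2241 and 3860 in 1xSRSF2 against 1xCtrl (2823 and 2910 with TMM), 2296 and 4862 in 1xSRSF3 against 1xCtrl (3666 and 3442), 3986 and 2303 in 1xSRSF7 against 1xSRSF2 (3108 and 2791), 5629 and 3076 in 1xSRSF7 against 1xSRSF3 (4226 and 4343), and 3557 and 1102 in the 3XSR change minus that of 1xSRSF3 (2698 and 1755). With upper-quartile scaling they were 2546 and 4047 in 1xSRSF3 against 1xCtrl, 2363 and 3698 in 1xSRSF3 against 1xSRSF2 (3442 and 3081 with TMM), and 2933 and 1181 in the 3XSR change minus that of 1xSRSF3. With total counts alone the median log2 fold change of all genes was -0.14 in 1xSRSF3 against 1xCtrl (-0.03 with TMM) and 0.13 in 1xSRSF7 against 1xSRSF3 (0.02). Depth limits ZEB1 most: with at least 10 counts in every library it was not tested in the first table or the joint fit.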
